A study of Glycine max with 4 samples.

Results

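The comparison described here is that of 2 vegetative bud libraries of soybean, 1 from the leaf mutant Clark five-foliate and 1 from the wild type Clark standard, called mutant and wild type below. Both are isolines of the cultivar Clark, that is, near-identical lines that differ at a trait of interest. The buds were taken from multiple 4-week-old plants grown in a greenhouse under optimal conditions, so each library represents pooled plants of 1 line. Shoot tips of the same 2 lines gave 1 further library each and are used here only beside the bud values. Deposited levels were RPKM, a read number scaled to the length of the gene model and to the library's total. The model with the highest mean RPKM over the 4 libraries stood for each gene, and a gene was a member when it had at least 1 RPKM in the mutant or the wild-type bud. Of 69145 genes in the files, 38332 were members. The 796 genes just inside this limit, with 1 to 1.1 RPKM in the higher bud library, had a median of 1.02 RPKM in the wild type and 0.995 RPKM in the mutant. The 840 genes just outside it, with 0.9 to 1 RPKM, had medians of 0.921 and 0.905 RPKM.

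Soybean leaves are compound and normally carry a terminal and a pair of lateral leaflets, and the mutant forms additional leaflets, as its name says. Leaflet number is laid down early, when the leaf primordium grows out from the flank of the shoot meristem, and vegetative buds enclose meristems and young primordia of this kind. A gene that acts in this patterning would be looked for in such tissue. In a bulk sample, fewer cells of a type and less RNA per cell cannot be told apart. The files pair no identifier with a gene name, and 0 of the 69145 identifiers matched the reference table of 59048 soybean genes. Genes are therefore described by chromosome and level, 2 identifiers are printed for each direction, and markers of bud tissue or of leaf patterning could not be examined. The identity of the targeted locus was not given in the labels, so it could not be used to check the libraries against their labels.

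The 2 bud libraries were close to each other for most genes. Ratios are given as log2 of the quotient mutant over wild type after adding 1 to each RPKM value, which makes the differences of weakly detected genes look smaller. Their median was -0.06 and the middle 50% of genes lay between -0.15 and 0.03. Within 1.5-fold in either direction were 37402 genes, 97.6% of the members. At least 2-fold apart were 351 genes, 0.916% of the members. Of these, 272 were higher in the mutant bud, 0.710% of the members, and 79 were lower, 0.206%. With 1 library a side these are sizes of difference between 2 libraries, with no replicate check and no p-value.

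As deposited, small and large differences leaned in opposite directions. At any size, 26395 genes (68.9%) were lower in the mutant bud and 11937 (31.1%) were higher. At 1.2-fold or more, 3468 genes were lower and 2050 higher, but with ratios centred on their median the same threshold gave 1998 lower and 2818 higher. From 1.5-fold upward the higher genes were the more numerous on both scales, with 651 higher and 279 lower as deposited and 777 and 206 after centring. At 3-fold there were 102 higher and 27 lower genes, and at 4-fold 43 and 15. At the far end the counts were small: 2 genes were at least 8-fold higher and 4 at least 8-fold lower in the mutant bud. Of these 4, 3 were neighbours on chromosome 4, and the only 2 genes past 16-fold were among these neighbours.

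The lean towards higher genes also depended on level. Among the 6167 genes whose higher bud library had 1 to 2 RPKM, 29 were at least 2-fold higher and 29 at least 2-fold lower in the mutant bud. Among the 11354 genes at 2 to 5 RPKM the counts were 107 higher and 23 lower, or 0.942% and 0.203% of the class. The 9392 genes at 5 to 10 RPKM held 69 higher and 17 lower genes. At 10 to 20 RPKM there were 40 and 7 among 6534 genes, and at 20 to 50 RPKM 22 and 2 among 3289. Above 50 RPKM few genes passed 2-fold: 3 higher and 0 lower of 874 genes up to 100 RPKM, and 2 higher and 1 lower of 722 genes beyond. The median log2 ratio of the classes ran from -0.04 to -0.08.

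**Figure D1:**
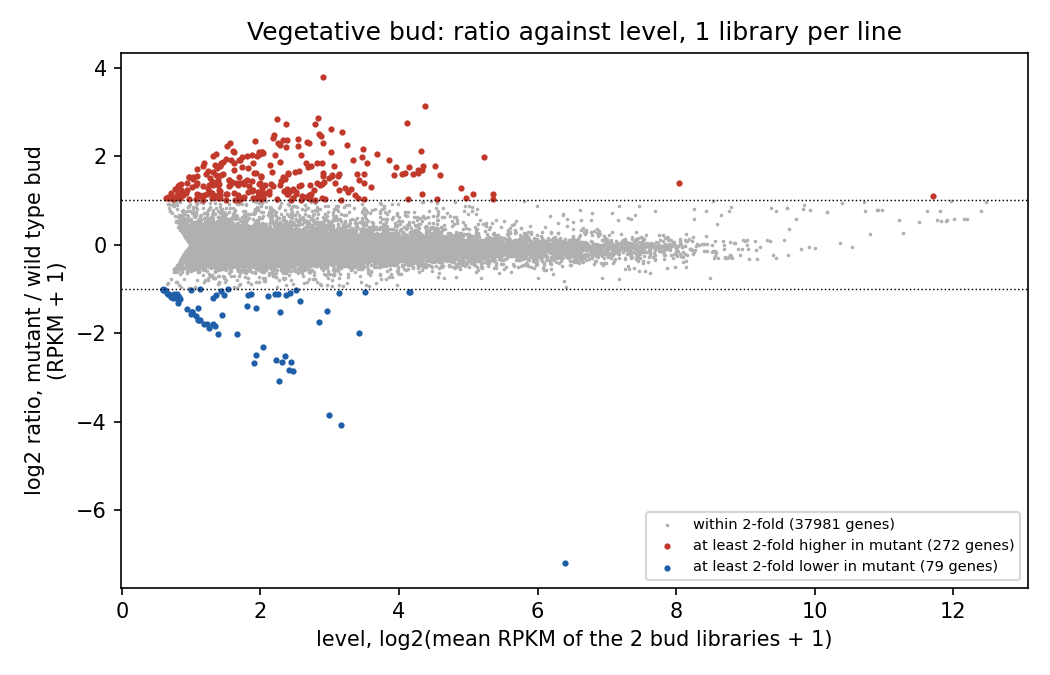
Log2 ratio of mutant to wild-type bud (RPKM + 1, vertical axis) against level (log2 of the mean RPKM of both bud libraries + 1, horizontal axis), with 1 point for each of 38332 genes. Red points are the 272 genes at least 2-fold higher and blue points the 79 at least 2-fold lower in the mutant bud, grey points lie within 2-fold, and dotted lines mark 2-fold. The point far below all others is Glyma04g35130, with a log2 ratio of -7.20.

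The gene with the highest bud ratio was Glyma13g25800 on chromosome 13. Read numbers, given from here on, were recovered from the steps of the RPKM values and are the smallest whole numbers that give them. The gene had 0.0103 RPKM, a single read, in the wild-type bud and 12.9 RPKM, from 1331 reads, in the mutant bud. In the shoot tip it had no read in the wild-type library and 15.2 RPKM in the mutant library, so both mutant libraries were far above both wild-type libraries. Glyma02g09290 on chromosome 2 followed, with 3.22 RPKM in the wild type and 36.1 RPKM in the mutant bud. Its fold, of RPKM with nothing added, was 11.2 (95% exact binomial interval of the reads 10.1 to 12.4), and its shoot tip levels of 1.09 and 24.0 RPKM had the same order. These intervals cover counting error only.

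The next genes differed from each other in the shoot tip. A gene on chromosome 1 had 0.718 RPKM in the wild-type bud and 11.5 RPKM in the mutant bud. With nothing added to RPKM, it was 16.1-fold higher in the mutant bud (interval 13.01 to 20.1). It had 37.3 RPKM in the wild-type shoot tip, however, and 0.0716 RPKM in the mutant shoot tip. The wild-type shoot tip was thus the highest of the 4 libraries and the mutant shoot tip the lowest. A gene on chromosome 11 had 0.152 and 7.25 RPKM in the wild type and mutant bud, and 0.205 and 7.36 RPKM in the same lines' shoot tips. Its levels were nearly the same in both tissues of a line. A gene on chromosome 15 had 0.807 and 11.02 RPKM in the buds and 2.55 and 3.66 RPKM in the shoot tips, so the lines were far apart in the bud and close in the shoot tip. Among the 12 genes with the highest bud ratio at 5 RPKM or more, 4 were also at least 2-fold higher in the mutant shoot tip, 6 were at least 2-fold lower there and 2 were within 2-fold. Their bud levels ran from 0.0103 to 3.51 RPKM in the wild type and from 6.78 to 36.1 RPKM in the mutant line, and the 2 ranges do not overlap because the genes were chosen for this difference.

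The gene with the lowest bud ratio was Glyma04g35130 on chromosome 4. It had 166 RPKM in the wild-type bud, from 31381 reads, and 0.135 RPKM in the mutant bud, from 27 reads. Its shoot tip levels were 480.4 RPKM in the wild type and 0.181 RPKM in the mutant line. It was the only gene above 100 RPKM in its higher bud library that was at least 2-fold lower in the mutant bud. Its neighbours on both sides in gene order were also among the 12 lowest. Glyma04g35120, at the preceding place, had 15.9 RPKM in the wild-type bud and no read in the mutant bud, and 13.4 RPKM against no read in the shoot tips. With only 2 values above 0 its model length could not be fixed from the data, and the shortest length that gave whole reads was used. The gene at the following place had 7.64 RPKM in the wild-type bud, from 286 reads, and 0.0251 RPKM, a single read, in the mutant bud. In the shoot tips it had 26.3 and 0.0559 RPKM. The 3 neighbours thus had both wild-type libraries far above both mutant libraries.

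Another pair of genes, on chromosome 6, were nearly without reads in the mutant bud. The first had 13.8 RPKM in the wild-type bud, from 1056 reads, and 0.0246 RPKM, from 2 reads, in the mutant bud. Its shoot tip levels were 1.55 RPKM and no read, so the wild-type bud stood above the wild-type shoot tip. The second had 5.47 RPKM from 904 reads in the wild-type bud and a single read in the mutant bud. Its levels of 4.90 RPKM and no read in the shoot tips were similar to those of the buds. All 12 genes with the lowest bud ratio, which had 5.47 to 166 RPKM in the wild-type bud and at most 0.516 RPKM in the mutant bud, were at least 2-fold lower in the mutant shoot tip too. Among all members, 3.29% were at least 2-fold lower in the mutant shoot tip and 7.09% at least 2-fold higher. The 12 are not all separate cases, since they include the 3 neighbours on chromosome 4. They also include groups of 2 and 3 genes with nearly the same levels, described below.

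**Figure D2:**
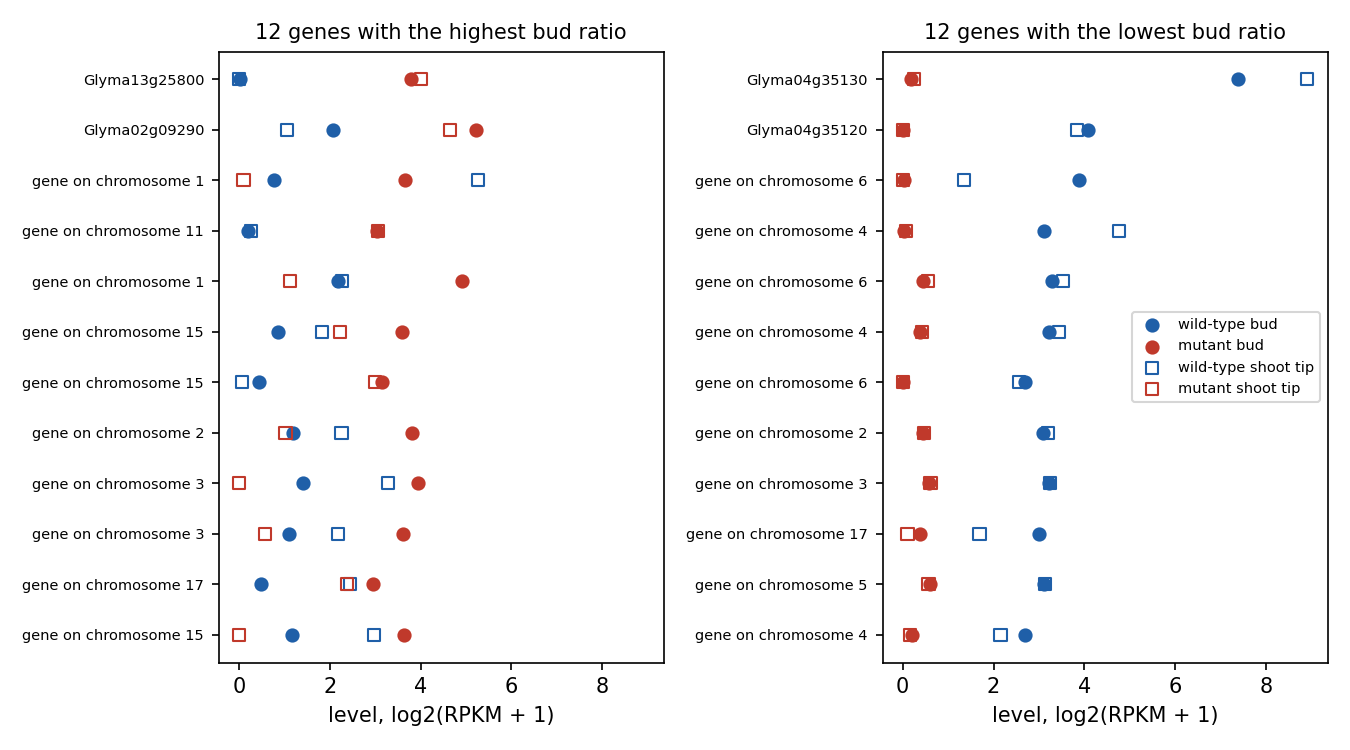
Levels (log2 of RPKM + 1, horizontal axis) of the 12 genes with the highest (left) and the 12 with the lowest (right) bud ratio in the 4 libraries, 1 library per symbol. Filled circles are buds, open squares shoot tips, blue is the wild-type and red the mutant line. On the right the red symbols lie left of the blue ones in all 12 genes, and on the left 6 genes have the open blue square, the wild-type shoot tip, at least 2-fold above the open red one.

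Genes near or at 0 in one bud and clearly detected in the other were looked at separately, at 1 RPKM or more in one library and 0.1 RPKM or less in the other. There were 40 such genes with the reads in the wild-type bud, 0.104% of the members, and 28 with the reads in the mutant bud, 0.0730%. This excess was opposite to the balance at 2-fold, but with absence at 0.01 RPKM the counts were 14 and 13. Many of the 40 had nearly the same levels as others and were counted separately. Examples are 4 genes with 1.98 RPKM each in the wild-type bud, on chromosomes 4, 6, 8 and 16. A further 4 had 2.32 to 2.74 RPKM, on chromosomes 2, 4, 6 and 15, and 4 had 1.22 to 1.45 RPKM, on chromosomes 3, 11, 12 and 20. Each gene of such a group enters the 40 and their shoot tip share below. The balance with such genes counted once was not examined, so the excess cannot be read as a lean. The 40 had 1.01 to 15.9 RPKM in the wild-type bud, with a median of 1.45, and 12 of them had no read in the mutant bud. In the shoot tip 39 of the 40 (97.5%) were lower in the mutant line at some size, against 23.8% of all members, 16 met the same limits there and 0 met the opposite ones. The 28 had 1.098 to 12.9 RPKM in the mutant bud, with a median of 1.69, and 12 of them had no read in the wild-type bud. In the shoot tip 16 of the 28 (57.1%) were higher in the mutant line and 12 lower, against 76.1% higher among all members, 7 met the same limits and 2 the opposite ones. Most of these genes were near the limit: 4 of the 40 and 1 of the 28 reached 5 RPKM. Genes under 1 RPKM in both shoot tip libraries numbered 23 of the 40 and 17 of the 28.

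The abundant members at least 2-fold apart were mainly higher in the mutant bud, as were those of all levels, with 272 higher and 79 lower. At 20 RPKM or more in the higher bud library there were 27 higher and 3 lower genes. Higher genes were 0.669% of members at 20 to 50 RPKM, 0.343% at 50 to 100 RPKM and 0.277% beyond, against 0.710% of all members. Lower genes were 0.0608%, 0 and 0.139% of these classes, against 0.206%. The most abundant of the 27 lay on chromosome 13 within a run of very abundant genes, with 2135 RPKM in the wild type and 4542 RPKM in the mutant bud. A gene on chromosome 8 had 144 RPKM in the wild type and 382.5 RPKM in the mutant bud, but 121 and 21.9 RPKM in the shoot tips. The mutant bud was its highest and the mutant shoot tip its lowest library. A gene on chromosome 15 had the same highest and lowest libraries, with 14.03 and 58.7 RPKM in the buds and 18.5 and 0.622 RPKM in the shoot tips. Adjacent genes on chromosome 16 had 24.6 and 20.1 RPKM in the wild-type bud, 55.2 and 45.3 RPKM in the mutant bud, 35.8 and 26.1 RPKM in the wild-type shoot tip and 8.98 and 9.50 RPKM in the mutant shoot tip. In the shoot tip, 4 of the 27 were at least 2-fold higher in the mutant line, 5 at least 2-fold lower and 18 within 2-fold. Of all members, 7.09% were at least 2-fold higher there and 3.29% at least 2-fold lower.

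The 20 most abundant genes of the wild-type bud were higher in the mutant bud with 1 exception, but mostly by less than 2-fold. Of these, 17 lay on chromosome 13, between places 551 and 586 in the order of that chromosome's member genes. Their levels were 1426 to 4038 RPKM in the wild type and 2451 to 7526 RPKM in the mutant bud, and their log2 ratios ran from 0.50 to 1.09. They held 8.58% of the RPKM sum of the wild-type bud and 13.5% of that of the mutant bud. The other 3, on other chromosomes, had log2 ratios from -0.06 to 0.25. RPKM are relative to a library's total, so a larger share of these genes goes with lower values for the other genes of the library. The part of this in the small negative median of the bud ratios was not tested.

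The shoot tip values entered the choice of bud genes only through the model that stood for a gene. With the first model of each gene, a choice that uses no level, 272 genes were higher and 77 lower in the mutant bud. The 79 genes lower in the mutant bud were mostly lower in the mutant shoot tip as well: 71 (89.9%) had a ratio below 0 and 8 above 0, with a median log2 ratio of -0.89, against a median of 0.32 over all members. At least 2-fold lower in both tissues were 38 of the 79 (48.1%), against 3.29% of all members, and 0 of the 79 were at least 2-fold higher in the shoot tip. In 65 of the 79 genes (82.3%) both mutant libraries lay below both wild-type libraries, which was the case for 3.15% of all members. Their median levels were 2.74 RPKM in the wild-type bud, 0.108 RPKM in the mutant bud, 1.55 RPKM in the wild-type shoot tip and 0.0633 RPKM in the mutant shoot tip. The bud part of these figures follows from the choice of genes. Lower genes with nearly the same levels as each other, described below, were counted separately in all these shares. The other 41 genes stayed within 2-fold in the shoot tip, where their median levels were only 0.639 RPKM in the wild type and 0.0245 RPKM in the mutant line. With 1 added to each value, levels that both lie below 1 RPKM are always less than 2-fold apart, and 30 of the 79 genes had such levels in the shoot tip.

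The 272 genes higher in the mutant bud went both ways in the shoot tip and leaned against the general direction there. Of these, 95 were higher and 177 (65.1%) lower in the mutant shoot tip, against 23.8% lower among all members, and their median log2 ratio was -0.29, against 0.32. At least 2-fold higher in both tissues were 51 (18.8%), and 50 (18.4%) were at least 2-fold lower in the mutant shoot tip. Both shares are above those of all members, 7.09% and 3.29%. Shoot tip ratios are given as deposited here and above. Whether their general direction reflects the scaling to library totals was not tested. The 51 genes had medians of 0.789 and 4.89 RPKM in the wild type and mutant bud and of 0.610 and 5.17 RPKM in the shoot tips. The 171 genes within 2-fold in the shoot tip had medians of 1.06, 5.32, 1.30 and 0.847 RPKM in the wild-type bud, the mutant bud, the wild-type shoot tip and the mutant shoot tip. For 161 of these 171 (94.2%) the mutant bud was the highest of the 4 libraries. Over all 272 genes this held for 203 (74.6%), against 7681 of all 38332 members, and choosing genes for a high mutant bud favours it. Both mutant libraries lay above both wild-type libraries in 76 of the 272 (27.9%), against 7.02% of all members.

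**Figure D3:**
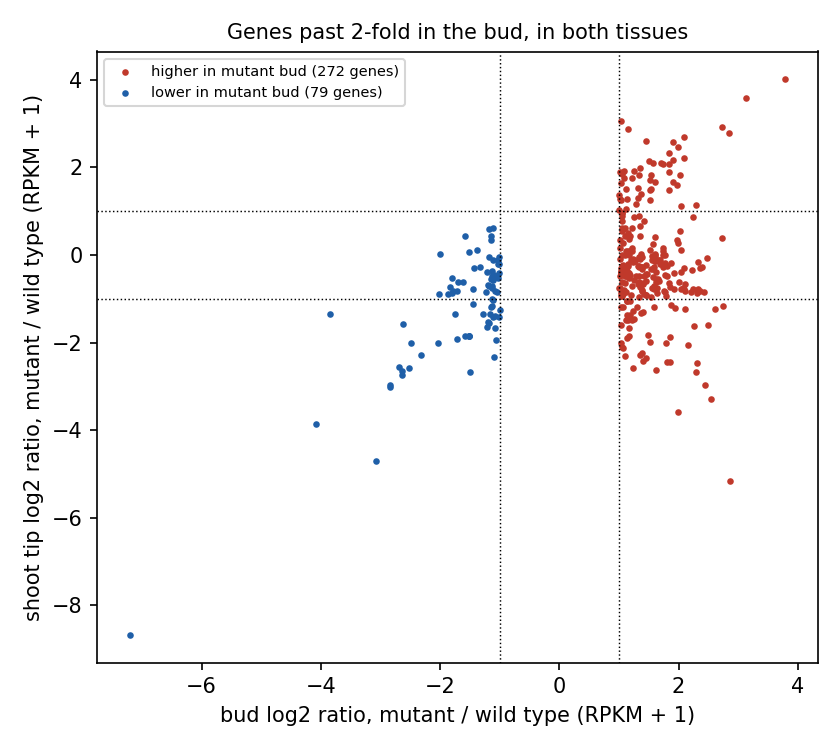
Log2 ratio of mutant to wild type (RPKM + 1) in the bud (horizontal axis) and in the shoot tip (vertical axis) for the 351 genes at least 2-fold apart in the bud, 1 library per line and tissue. Blue points, the 79 genes lower in the mutant bud, lie below 0 in the shoot tip in 71 cases, while the red points, the 272 higher genes, spread to both sides, with 51 past 2-fold upward and 50 past 2-fold downward.

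The genes were spread unevenly over the 20 chromosomes, which were read from the identifiers. Chromosome 3 carried 20 of the 79 lower genes (25.3%) but 4.65% of the members, and 1.12% of its 1781 genes were lower. Chromosomes 2 and 4 followed with 8 lower genes each, while chromosomes 7 and 10 had 0. The 8 on chromosome 4 had a median of 6.57 RPKM in the wild-type bud and 0.0743 RPKM in the mutant bud. Higher genes were most numerous on chromosome 13, with 31 of 2473 genes (1.25%), and most frequent on chromosome 16, with 19 of 1442 (1.32%). The lowest share of higher genes was on chromosome 19, with 5 of 1816 (0.275%). The median log2 ratio of a chromosome stayed between -0.05 and -0.07, so whole chromosomes did not stand apart.

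**Figure D4:**
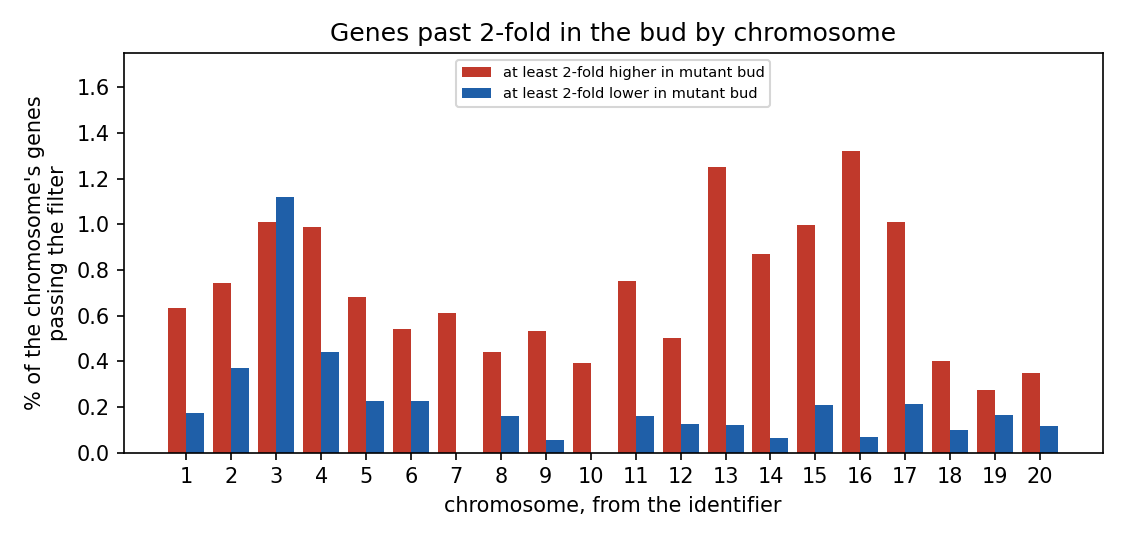
Share of each chromosome's member genes (vertical axis, %) that were at least 2-fold higher (red) or lower (blue) in the mutant bud, by chromosome number in the identifier (horizontal axis). The tallest blue bar is chromosome 3 at 1.12%, and the tallest red bars are chromosomes 16 and 13 at 1.32% and 1.25%.

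On chromosome 3 the lower genes lay together. Between places 141 and 695 of its 1781 member genes stood 18 of the 20 lower genes and 10 of the 18 higher ones. These limits were set by the outermost lower genes of the group, so the counts are a description. In this stretch of 555 genes, 9.55% were at least 1.5-fold apart in the bud, against 2.45% of the other 1226 genes of the chromosome and 2.31% of genes on other chromosomes. In the shoot tip 5.77% of the stretch was at least 2-fold lower in the mutant line, against 3.34% and 3.26%, and 7.75% at least 2-fold higher, against 7.83% and 7.06%. The shares of 9.55% and 5.77% were taken with the 18 lower genes, by which the stretch was chosen, left in. In the bud, 5.05% of the stretch was at least 2-fold apart. Of the chromosome's 20 lower genes, 10 were at least 2-fold lower in the mutant shoot tip. Shares without the lower genes were not computed. The richest window of 50 consecutive genes in the bud, at places 445 to 494, held 6 higher and 2 lower genes, and the window at places 302 to 351 held 7 lower and 0 higher genes. Over all 37166 windows the mean was 0.462 genes, and 68.7% of the windows held 0.

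Other windows were mixed or of 1 direction. On chromosome 4 the window at places 881 to 930 held 3 higher and 3 lower genes. On chromosome 16 the window from place 882 held 7 higher genes and 0 lower ones. Within it 4 genes in a row had 0.607 to 1.11 RPKM in the wild-type bud and 6.94 to 9.62 RPKM in the mutant bud. In the shoot tip the order of the lines was the opposite, with 1.32 to 1.76 RPKM in the wild type and 0.284 to 0.604 RPKM in the mutant line. On chromosome 17 the 4 lower genes of the chromosome lay within 5 places, from 1493 to 1497, with 1.03 to 7.03 RPKM in the wild-type bud and at most 0.307 RPKM in the mutant bud. Elsewhere on that chromosome, 3 higher genes between places 477 and 480 had 0.800 to 1.63 RPKM in the wild-type bud and 3.70 to 6.94 RPKM in the mutant bud. Their shoot tip levels were 4.24 to 8.53 RPKM in the wild type and 0.718 to 1.32 RPKM in the mutant line, again the opposite order. On chromosome 5, by contrast, 3 genes in a row were higher in both mutant tissues, with 1.13 to 2.41 against 3.31 to 7.64 RPKM in the buds and 0.438 to 1.82 against 2.73 to 8.95 RPKM in the shoot tips.

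Part of the genes had a neighbour of the same direction. Taking genes of the same direction no more than 3 places apart as a run, 33 of the 78 lower genes on chromosomes (42.3%) and 68 of the 271 higher ones (25.1%) lay in runs of 2 or more. The difference between these shares was not tested. No such share was computed for members in general, so how unusual either is cannot be told. Whether neighbours in a run share reads was not tested.

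**Figure D5:**
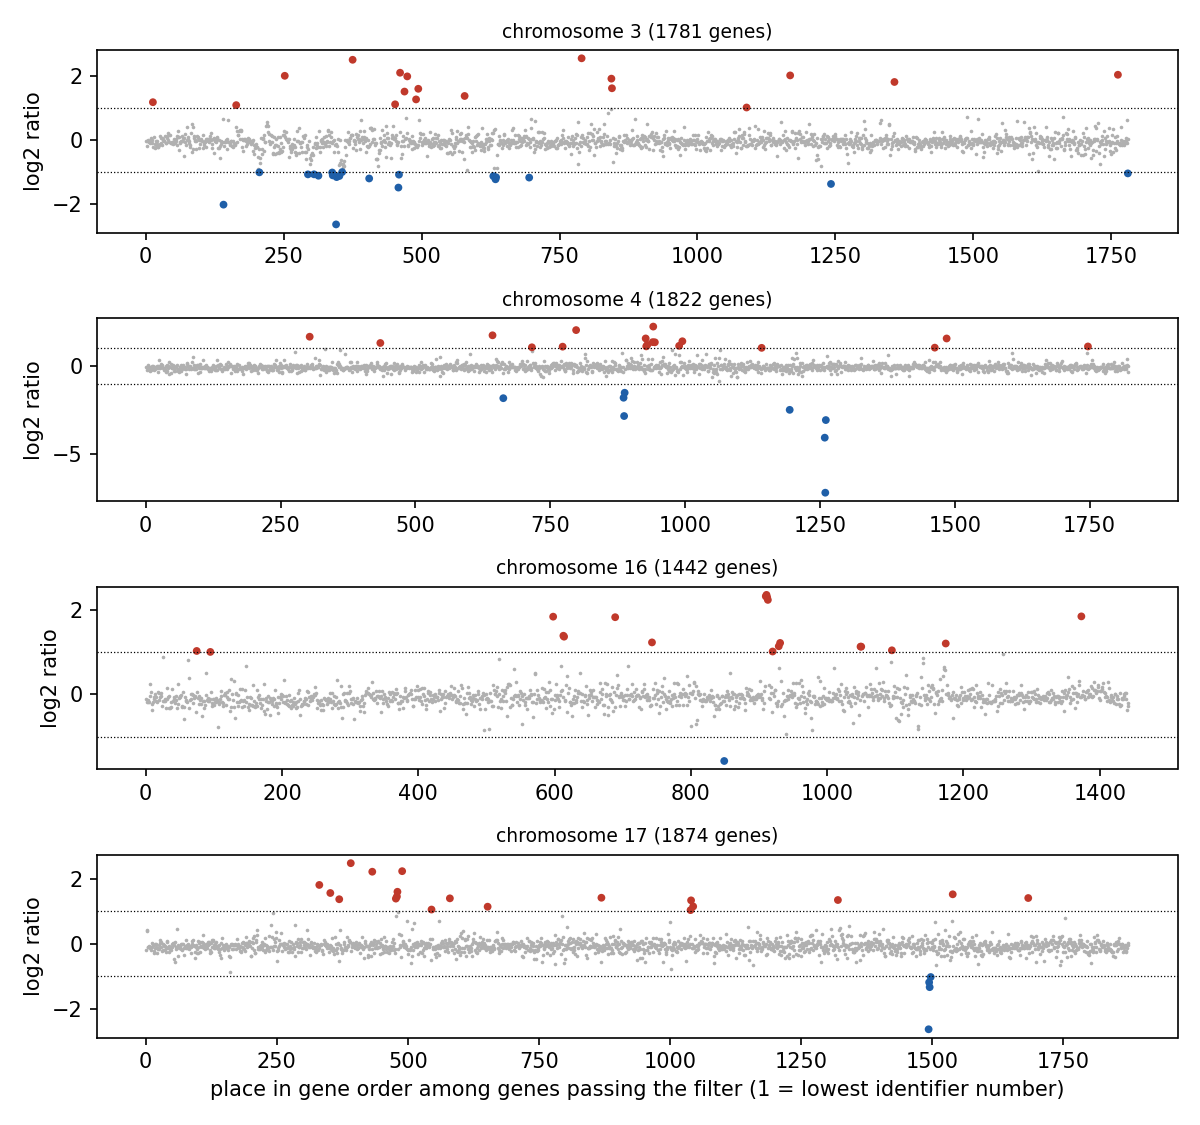
Bud log2 ratio of mutant to wild type (RPKM + 1, vertical axes, which differ between panels) along the order of member genes (horizontal axes, place 1 is the lowest identifier number) on chromosomes 3, 4, 16 and 17. Red points are genes higher and blue points genes lower in the mutant bud by 2-fold or more. Blue points gather between places 141 and 695 on chromosome 3 and between 1493 and 1497 on chromosome 17, and the lowest point on chromosome 4 is at place 1260.

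Some lower genes on different chromosomes had nearly the same levels. Of the 79, 23 had wild-type bud and wild-type shoot tip levels both within 10% of those of another of the 79, in 8 groups. In 1 group, 4 genes on chromosomes 4, 6, 8 and 16 had 1.98 RPKM each in the wild-type bud and 2.59 to 2.61 RPKM in the wild-type shoot tip. They had at most 0.0389 RPKM in the mutant bud and no read in the mutant shoot tip. Their recovered model length was 248 bases each, the shortest that gave whole reads. A recovered length follows from the RPKM values, so the equal lengths are not separate from the equal levels. Genes on chromosomes 4 and 6, each next to one of these, had 8.34 and 8.76 RPKM in the wild-type bud and 0.300 and 0.357 RPKM in the mutant bud. A further group of 3 genes on chromosomes 2, 3 and 5 had 7.52 to 8.35 RPKM and 0.361 to 0.516 RPKM. The genes of these last 2 groups are all among the 12 with the lowest bud ratio. How the authors treated reads that match several places is not given in the sources used here, and whether such genes share reads was not tested. Counting genes with equal values in both buds once left 271 higher and 77 lower genes. This merged exact ties only, and genes with nearly the same levels were still counted separately. Among the higher genes, 10 of 272 matched another within 10% in all 4 libraries, a stricter condition than the one used for the lower genes.

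The models of the lower genes were short, with a median of 655 bases against 1156.5 for the higher genes and 1292 for all members, and a median of 246, 683 and 1449 reads lay behind a gene over both buds. A recovered length is the shortest that gives whole reads and can fall too low where libraries are at 0. Among genes with reads in all 4 libraries, 54 lower, 254 higher and 38121 of all members, the median lengths were 749.5, 1174.5 and 1296 bases. Alternative models of a gene gave similar ratios. For 6250 genes with several models at 1 RPKM or more, the models' log2 ratios differed by a median of 0.01 and at most 0.67. Of 26 genes with a model at least 2-fold higher in the mutant bud, 23 had all models past 2-fold, and of 5 with a model at least 2-fold lower, 2 had. The models of a gene share most of their sequence, so this is not independent evidence.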

How the data were processed

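RPKM values were made and deposited by the authors in 1 table per tissue. Reads were aligned with Bowtie, per the submitters' processing notes; the sources used here give no version, genome build or annotation. The bud table's 708957 rows with no identifier and 7 empty columns were dropped, leaving 78773 models of 69145 genes. Library totals recovered from the RPKM steps were 97532923 alignments for the wild-type and 103618555 for the mutant bud, so that 3 reads in a model of 1 kb equal 0.0308 and 0.0290 RPKM. Lengths of 20 to 20000 bases were searched, the shortest giving whole reads within 0.0005 was taken, and 99.99% of members had one. Recovery and counting were tested on simulated data. The models simulated for recovery were longer than the shortest lengths recovered here. Reads entered only intervals and read numbers. No test was run, because each group has 1 library.

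Alternatives were pseudocounts of 0.1 and 5 RPKM, no filter and a filter of 5 RPKM, centring, upper-quartile scaling, a 3-fold threshold, summed or first models, equal values counted once, other limits for absence and windows of 25 and 100 genes. Members, lists and rules were chosen with earlier results of these data known. Named genes were the 12 highest and 12 lowest ratios at 5 RPKM or more in the higher bud library, with 2 identifiers printed per direction; further genes described were chosen after their values were seen. Gene lists by name could not be applied. Software was matplotlib 3.10.9, SciPy 1.17.1, pandas 2.3.3 and numpy 2.4.6 under Python 3.11.15.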

Additional observations from a re-analysis of the deposited data

Results flagged for a closer look

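The difference between the lines had opposite signs in the 2 tissues for 50 genes, which were at least 2-fold higher in the mutant bud and at least 2-fold lower in the mutant shoot tip. Each value rests on 1 library, and the difference between tissues was not tested. Of the 12 genes with the highest bud ratio, 6 belong to them. Ordered by the smaller of the 2 log2 differences in size, the gene on chromosome 1 given above came first, followed by genes on chromosomes 3 and 15. The first had 1.64 and 14.4 RPKM in the wild type and mutant bud and 8.75 and 0.00520 RPKM in the shoot tips, and the second had 1.26 and 11.3 RPKM and 6.85 and 0.00631 RPKM.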

How the results depend on the processing

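The count of 351 genes became 623 (448 higher, 175 lower) when the pseudocount was 0.1, 77 (62 and 15) when it was 5, 163 (136 and 27) for genes at 5 RPKM or more and 129 (102 and 27) with a 3-fold threshold. Higher genes were the more numerous in each of these. Genes present in the wild-type bud alone numbered 4 at 5 RPKM and 14 with absence at 0.01 RPKM, against 40, and those present in the mutant bud alone 1 and 13, against 28. The median shoot tip log2 ratio of the higher genes was -0.55 (pseudocount 0.1), -0.40 (filter at 5 RPKM) and -0.59 (centred). That of the lower genes was -1.22 with a pseudocount of 5, -1.94 with the filter, -1.34 after centring and -1.58 at 3-fold. The richest window held 4 genes at 3-fold. No sign changed, and the causes were not tested. The other 26 of these 50 values stayed within 1.5 times the count or 0.1 of the median; a gene under 1 RPKM cannot pass 2-fold with a pseudocount of 1, so dropping the filter could not change the count. Of 72 alternative ratios of the 24 named genes, 48 moved beyond the counting interval of the ratio with 1 RPKM added. These 48 were all the ratios with another pseudocount, and the 24 centred ratios stayed within the interval. Adding the same value to both libraries cannot change the sign of a ratio. Centring shifts it too little to do so for these genes, so their signs were fixed in advance. No paired analysis was possible because the counts come from no test and the bud groups, of 1 library each, share a single replicate number; a fit of line with tissue as a block over the 4 libraries was not run. Gene lists could not be matched to names, so their alternatives were not run.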
